A study of Mus musculus with 55 samples.

Results

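The keratin genes of mouse liver were taken as every gene named Krt followed by a digit in the deposited RNA-seq tables, and 8 of the 4113 genes listed in either table met this rule. They were the type I keratin genes Krt19, Krt20 and Krt23 on chromosome 11, the type II keratin genes Krt4, Krt7, Krt8 and Krt79 on chromosome 15, and the processed pseudogene Krt8-ps on chromosome 7. All 8 were in the table of 3900 genes that compares livers labelled Setd8-LKO and given TCPOBOP with untreated wild type livers. Krt4, Krt23 and Krt79 were also in the table of 719 genes that compares TCPOBOP-treated with untreated wild type livers. The annotation holds 55 genes of this name pattern, of which 53 are protein-coding, and the 46 protein-coding ones outside the tables, Krt18 among them, were not analysed here at the RNA level.

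Keratins are the intermediate filament proteins of epithelial cells, and a filament is built from pairs of 1 type I and 1 type II chain. Hepatocytes normally make the pair of Krt8 and Krt18, and bile duct cells add Krt7 and Krt19. Krt20 is known from the intestinal and urinary tract lining, Krt4 from the stratified lining of mouth and oesophagus, and Krt79 from skin appendages. Krt23 is a type I keratin of less settled function that has been described in stressed liver.

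The samples came from livers of male C57Bl6 mice aged 45 to 50 days, with whole liver used for RNA-seq and liver nuclei for ATAC-seq and CUT&Tag. RNA-seq covered 5 wild type (WT) libraries labelled untreated and 5 from WT mice taken 24 h after an intraperitoneal dose of 3 mg/kg TCPOBOP. A further 4 RNA-seq libraries came from Setd8-LKO mice given the same treatment. The WT controls are labelled untreated, whereas the methods describe a vehicle injection (corn oil, or DMSO in another passage), so whether they were injected is not settled here. TCPOBOP activates the nuclear receptor CAR and drives hepatocytes to divide. Setd8-LKO mice carry a floxed Setd8 (Kmt5a) gene, whose product monomethylates histone H4 at lysine 20, and a Cre driven by the albumin promoter, so deletion is aimed at hepatocytes and the other liver cells keep the gene. The Setd8-LKO group therefore differs from the untreated WT group in both genotype and drug, and their parts cannot be told apart in that comparison. One peak list per condition was used for ATAC-seq, for ChIP-seq of H3K27ac, CTCF and Smc3, and for CUT&Tag of Lamin A/C and H4K20Me3, with untreated WT and Setd8-LKO + TCPOBOP as the only conditions.

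The counts summed over the 3900 listed genes ranged from 11238950 to 12780869 in the untreated WT libraries and from 5734065 to 8231255 in those labelled Setd8-LKO, and in the second table, over 719 genes, from 1389901 to 3706582. The total depth of a library was not analysed here. The label check by the targeted gene went the other way: Kmt5a had 563 to 761 normalized counts in untreated WT and 1313 to 1465 in the libraries labelled Setd8-LKO. Its log2 fold change was 1.08 (adjusted p = 0.00045, edgeR), near the median of all genes tested, and 0.27 (adjusted p = 1.0, edgeR) under DESeq2 size factors of the listed genes. Gene-level reads cannot single out the floxed exon, and these libraries are called labelled Setd8-LKO throughout. Hepatocyte genes were high in every library, with 4 of 7 hepatocyte markers listed and their summed level at 1051208 to 1776186 normalized counts in untreated WT against 440293 to 619270 in the libraries labelled Setd8-LKO. Libraries were labelled with 1 of 2 runs, A or B, and what a run stands for is not stated. Run A held 3 untreated WT libraries, 3 WT + TCPOBOP libraries and replicate 4 of Setd8-LKO, and run B held the rest. Replicate 3 of the libraries labelled Setd8-LKO stood apart, being the lowest of the 4 for 55.8% of the 2129 genes with a higher mean in that group. Since RNA came from whole liver, fewer cells of a type and less RNA per cell cannot be told apart.

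In livers labelled Setd8-LKO and given TCPOBOP, every one of the 8 keratin genes had a higher mean normalized count than in untreated WT liver. Krt20, Krt4, Krt79, Krt7, Krt8 and Krt8-ps passed the test, which asks for an adjusted p below 0.05 and a log2 fold change of at least 1 in edgeR's quasi-likelihood test. Krt19 and Krt23 did not pass, which depends on the adjustment over all 55450 annotated genes: over the listed genes tested, all 8 passed. The table holds genes that the authors selected on these same libraries, so a call is not independent evidence of a change, and 50.5% of the 3726 genes tested were called higher. Groups of the 6 called genes did not overlap, as was the case, in the higher direction, for 51.8% of all genes tested. The median log2 fold change over all genes tested was 1.16, and those of Krt8, Krt8-ps, Krt19 and Krt23 were between 1.23 and 1.49. Scaling on the listed genes alone with DESeq2 size factors, which centres the listed genes, shifted log2 fold changes by a median of -0.82, changed the calls over all genes from 1881 higher and 1289 lower to 765 higher and 1463 lower, and left Krt7, Krt4 and Krt79 called among the 7 keratin genes still tested.

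**Figure D1:**
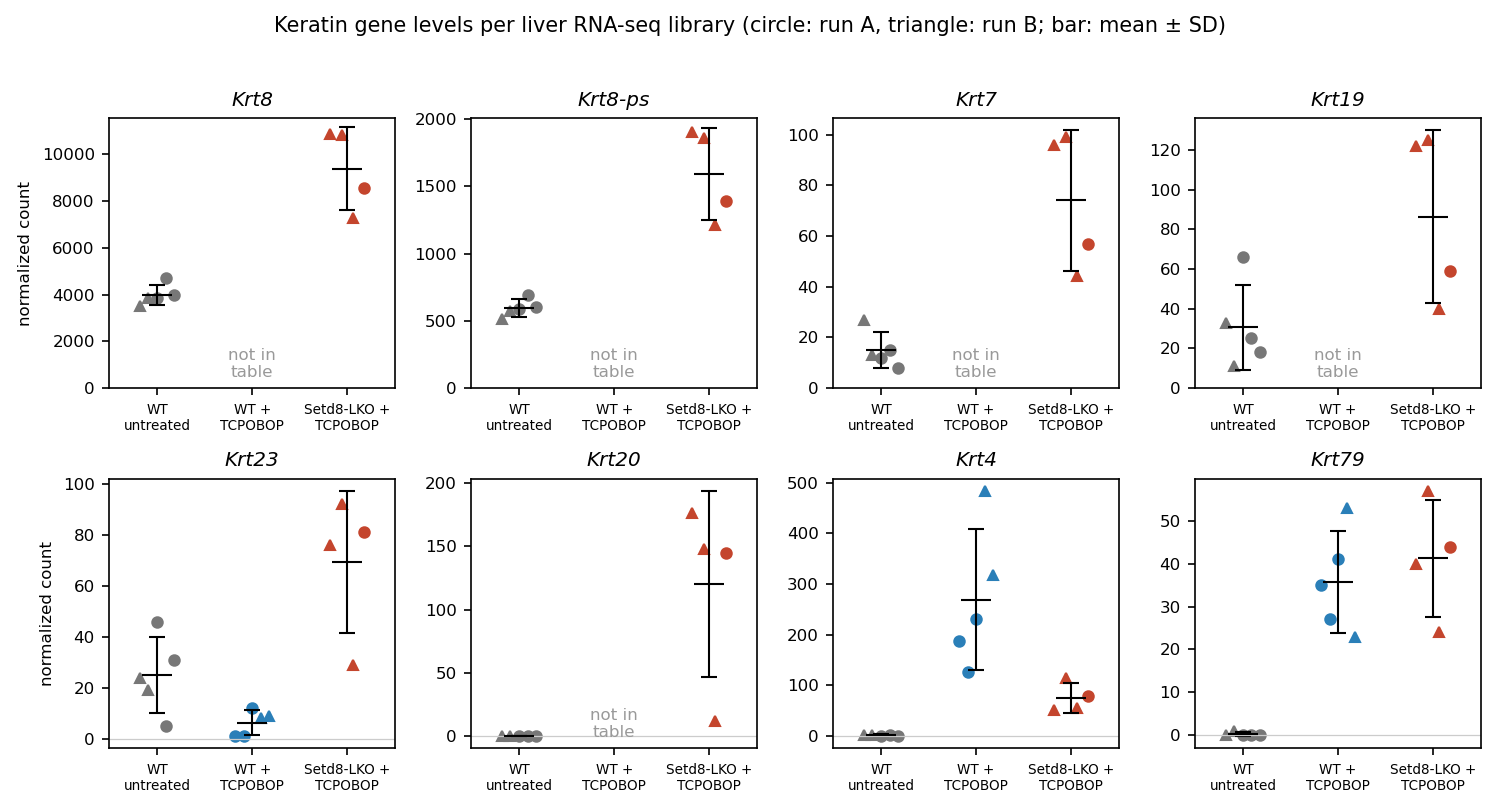
Normalized count of each keratin gene (vertical axis, linear and separate for each panel) in every liver RNA-seq library, by group on the horizontal axis. Circles are run A, triangles run B, and bars the mean ± SD over 5 untreated WT, 5 WT + TCPOBOP and 4 Setd8-LKO + TCPOBOP libraries. Krt20 was at 0 in all 5 untreated libraries, Krt4 reached 127 to 484 in WT + TCPOBOP, and Krt23 was between 1 and 12 there.

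Krt8, the type II chain of the hepatocyte filament, was by far the most abundant listed keratin per kb of exon. The gene (ENSMUSG00000049382) spans 101996698 to 102004482 on the minus strand of chromosome 15 in mm10. It measured 3529, 3855, 3872, 4693 and 4000 normalized counts in untreated WT replicates 1 to 5. In the libraries labelled Setd8-LKO it measured 10875, 10822, 7267 and 8554 in replicates 1 to 4. The mean was 3990 ± 430 (SD, n = 5) against 9380 ± 1776 (SD, n = 4), and the groups did not overlap. The fitted log2 fold change was 1.23 (SE 0.17, adjusted p = 0.00079, edgeR), and it was 0.39 (adjusted p = 1.0, edgeR) under DESeq2 size factors of the listed genes, so the call on Krt8 depends on the scaling. Per kb of exon, which allows levels of different genes to be compared, Krt8 stood at 2038 ± 220 (SD, n = 5) in untreated WT and 4790 ± 907 (SD, n = 4) in the libraries labelled Setd8-LKO. Krt8 made up 96.7% to 99.2% of the summed per-kb level of the 7 protein-coding listed keratins in untreated WT and 95.1% to 97.8% in the libraries labelled Setd8-LKO. The other 6 genes together had a per-kb sum of 20.2 to 66.7 in untreated WT and of 83.4 to 283 in the libraries labelled Setd8-LKO, with no overlap.

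Krt8-ps, a processed copy of the Krt8 transcript, followed its parent gene. It (ENSMUSG00000109325) lies at chromosome 7, 23357125 to 23358069 on the plus strand of mm10, within an intron of Nlrp4e, and over 941 aligned columns it was 98.6% identical to the Krt8 transcript. Of its 896 words of 50 bases, 514 occur unchanged in a Krt8 transcript, so reads of the 2 genes cannot be told apart over much of the pseudogene and its count is uncertain. It measured 513, 574, 589, 693 and 606 normalized counts in untreated WT and 1901, 1860, 1212 and 1389 in the libraries labelled Setd8-LKO. Its groups did not overlap, with a fitted log2 fold change of 1.42 (SE 0.17, adjusted p = 0.0003, edgeR), and as for Krt8 the call was lost under DESeq2 size factors. The ratio of Krt8-ps to Krt8 was 0.145 to 0.152 in untreated WT and 0.162 to 0.175 in the libraries labelled Setd8-LKO, a narrow band in each group with no overlap between them. After each group's mean was subtracted, log2 levels of Krt8 and Krt8-ps correlated at r = 0.99 over the 9 libraries. Nlrp4e was among the 3 genes most like Krt8 by this measure (r = 0.98), and its level was 910 ± 76.1 (SD, n = 5) in untreated WT and 2601 ± 512 (SD, n = 4) in the libraries labelled Setd8-LKO. The gene body of Nlrp4e holds 983 words of 50 bases that are found in Krt8 transcripts, and its annotated transcripts hold 0. Whether the authors' count of Nlrp4e includes intronic reads was not tested.

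Krt7 and Krt19, the type II and type I keratins of bile duct cells, were both low in untreated liver, and of the pair only Krt7 passed the test. Krt7 (ENSMUSG00000023039) spans 101411043 to 101430313 on the plus strand of chromosome 15, and Krt19 (ENSMUSG00000020911) spans 100140810 to 100148665 on the minus strand of chromosome 11. Per kb of exon, Krt19 stood above Krt7 in every library, with Krt7 at 0.048 to 0.31 of Krt19 in untreated WT and at 0.21 to 0.29 in the libraries labelled Setd8-LKO. This order depends on the length used, the union of all annotated exons, which was 7049 bp for Krt7 and 1855 bp for Krt19. Without division by length, Krt7 was above Krt19 in untreated replicate 2 (13 against 11) and in replicate 3 labelled Setd8-LKO (44 against 40). Krt7 measured 27, 13, 12, 15 and 8 normalized counts in untreated WT and 96, 99, 44 and 57 in the libraries labelled Setd8-LKO. Its mean was 15.0 ± 7.18 (SD, n = 5) against 74.0 ± 27.7 (SD, n = 4), with no overlap, and its log2 fold change was 2.30 (SE 0.38, adjusted p = 0.0024, edgeR). Krt19 measured 33, 11, 66, 25 and 18 in untreated WT and 122, 125, 40 and 59 in the libraries labelled Setd8-LKO. One untreated library of Krt19, replicate 3 with 66, was above 2 of the 4 libraries labelled Setd8-LKO. The Krt19 log2 fold change of 1.49 (SE 0.50) missed the threshold (adjusted p = 0.20, edgeR). It passed with adjustment over the listed genes tested (adjusted p = 0.013, edgeR), and without untreated WT replicate 3 it was 1.98 and passed (adjusted p = 0.028, edgeR). Within runs, the mean of Krt19 was 1.62 times the untreated mean in run A, which holds a single library labelled Setd8-LKO, and 4.35 times in run B.

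Markers of bile duct epithelium moved in the same libraries as Krt7 and Krt19. Of the 12 markers on the list, 8 were in the table and 7 were tested, and all 7 were called higher, their median log2 fold change being 3.21 against 1.16 over all genes tested, 50.5% of which were called higher. Under DESeq2 size factors 5 of 7 were called higher, beside 21.2% of all genes. Their summed level was 408 to 693 normalized counts in untreated WT and 1982 to 8629 in the libraries labelled Setd8-LKO. Prom1, the membrane protein prominin 1, went from 32.0 ± 17.0 (SD, n = 5) to 1060 ± 491 (SD, n = 4). Cldn4, a tight junction claudin, went from 2.64 ± 2.13 to 57.0 ± 31.0, and Spp1, which encodes osteopontin, from 398 ± 106 to 4083 ± 2317, each with the same n. Replicate 3 had the lowest sum of these markers in its group, 1982, and was the lowest of the group for Krt7 and Krt19 as well. That position is common, since replicate 3 was the lowest for 55.8% of the 2129 genes with a higher mean in the group. The part of bile duct cells in the keratin levels was not tested.

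Krt20, a type I keratin of intestinal and urinary epithelium, was not detected in untreated WT liver and had reads in all 4 libraries labelled Setd8-LKO. The gene (ENSMUSG00000035775) spans 99428403 to 99438150 on the minus strand of chromosome 11. It had 0 reads in all 5 untreated libraries and 176, 148, 12 and 145 normalized counts in replicates 1 to 4 labelled Setd8-LKO. Replicate 3 was at 9.98% of the mean of its group, and the other 3 libraries were within 145 to 176. With 3 counts over the untreated group taken as the floor, Krt20 was at least 182-fold higher. The call (adjusted p = 0.0053, edgeR) stood in each of the 16 settings in which Krt20 was tested, with an adjusted p of 0.018 at most, while under DESeq2 size factors the filter on low counts removed the gene. Of the intestinal epithelium markers, 2 of 7 were listed, Vil1 and Fabp2, and both were called higher, beside 50.5% of all genes tested, with summed levels of 361 to 780 normalized counts in untreated WT and 827 to 1238 in the libraries labelled Setd8-LKO. The log2 fold change of Fabp2 was 1.09, below the 1.16 of the median gene, and under DESeq2 size factors Vil1 alone was called. Their part in the level of Krt20 was not tested.

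Krt4 and Krt79, type II keratins of stratified epithelium and of skin appendages, lie next to each other in the same orientation on the minus strand of chromosome 15. Krt4 (ENSMUSG00000059668) spans 101918535 to 101924735 and Krt79 (ENSMUSG00000061397) spans 101929332 to 101940324 in mm10. Both were close to absent in untreated WT liver and present in every treated library of either genotype. Krt4 measured 2, 3, 0, 3 and 1 normalized counts in untreated WT, 188, 127, 231, 484 and 318 in WT + TCPOBOP and 52, 115, 55 and 80 in the libraries labelled Setd8-LKO. The lowest treated library was therefore far above the highest untreated one. Krt79 measured 0, 1, 0, 0 and 0 in untreated WT, 35, 27, 41, 53 and 23 in WT + TCPOBOP and 40, 57, 24 and 44 in the Setd8-LKO-labelled libraries.

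In WT mice TCPOBOP alone was followed by a higher level of Krt4 and Krt79. Krt4 had a log2 fold change of 7.15 (SE 0.57, adjusted p = 1.0e-04, edgeR) between WT + TCPOBOP and untreated WT, from 1.80 ± 1.30 to 270 ± 139 normalized counts (SD, n = 5 each). For Krt79, 144 reads in the WT + TCPOBOP group against 1 in the untreated group gave a depth-scaled ratio of 160, with a 95% counting interval of 28.3 to 6380. The adjusted p of Krt79 was 0.0002 (edgeR). Both genes were called, and 51.4% of the 679 genes tested in this table were called higher while 60.8% were higher with no overlap between groups. DESeq2 size factors of the listed genes shifted log2 fold changes here by a median of -1.17 and changed the calls from 349 higher and 110 lower to 67 higher and 195 lower, and TMM gave 61 higher and 198 lower. Krt4 and Krt79 remained called under both scalings.

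The same genes rose in the libraries labelled Setd8-LKO given TCPOBOP, again relative to the same 5 untreated libraries. Krt4 reached 75.5 ± 29.2 normalized counts (SD, n = 4), a log2 fold change of 5.34 (SE 0.49, adjusted p = 5.3e-05, edgeR). For Krt79, 210 reads against 1 gave a ratio of 189 with a 95% counting interval of 33.6 to 7515 (adjusted p = 4.2e-05, edgeR). These intervals cover counting error only.

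The 2 treated groups were then set against each other over the 506 genes found in both tables, a comparison added after the data had been seen. It was possible because the raw counts of the untreated libraries were identical in the 2 tables. Their scaling factors were nearly equal, such as 1.2527 in both for replicate 2, which puts all 14 libraries on one scale. Krt4 was lower in all 4 libraries labelled Setd8-LKO (52 to 115) than in all 5 WT + TCPOBOP libraries (127 to 484), with a mean ratio of 0.28 and a log2 fold change of -1.84 (SE 0.42). This difference missed the threshold of the fit across genes (adjusted p = 0.18, edgeR). Within runs the ratio of means was 0.44 in run A, with a single library labelled Setd8-LKO, and 0.18 in run B. Krt79 showed no difference between the treated groups that the test could call, at 41.3 ± 13.6 (SD, n = 4) against 35.8 ± 11.9 (SD, n = 5) and a log2 fold change of 0.22 (SE 0.35, adjusted p = 1.0, edgeR). In this comparison 9.09% of the genes were called higher and 15.8% lower in the libraries labelled Setd8-LKO. The share of the 506 genes whose treated groups did not overlap was not analysed here, so how common the separation seen for Krt4 is stays unknown.

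Krt23 was the listed keratin whose mean moved in opposite directions in the 2 treated groups. The gene (ENSMUSG00000006777) spans 99477974 to 99493137 on the minus strand of chromosome 11. It measured 24, 19, 46, 5 and 31 normalized counts in untreated WT, 1, 1, 12, 8 and 9 in WT + TCPOBOP, and 76, 92, 29 and 81 in the libraries labelled Setd8-LKO. Untreated replicate 4, with 5, sat inside the range of WT + TCPOBOP, and untreated replicates 3 and 5, with 46 and 31, were above the 29 of replicate 3 labelled Setd8-LKO. Neither comparison with untreated WT passed: the log2 fold change was -2.01 (SE 0.64, adjusted p = 0.78, edgeR) with TCPOBOP alone, where 16.2% of genes were called lower, and 1.46 (SE 0.50, adjusted p = 0.21, edgeR) in the libraries labelled Setd8-LKO. Both misses depend on the adjustment over all annotated genes, since over the listed genes tested the adjusted p was 0.0096 (edgeR) with TCPOBOP alone and 0.014 (edgeR) for the libraries labelled Setd8-LKO. The treated groups did not overlap with each other, 1 to 12 against 29 to 92, and the share of genes with such a separation was not analysed here. The log2 difference between the treated groups, 3.47 (SE 0.62), was called (adjusted p = 0.026, edgeR), where 9.09% of the 506 genes were called higher. That call was lost when replicate 1, 2 or 4 of the libraries labelled Setd8-LKO or replicate 1, 2, 4 or 5 of WT + TCPOBOP was left out, with an adjusted p between 0.066 and 0.11 (edgeR), while the log2 difference stayed between 3.19 and 3.81 over all 9 omissions.

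Among the libraries labelled Setd8-LKO, replicate 3 was the lowest of the 4 for 7 of the 8 keratin genes and replicate 1 was the lowest for Krt4. Replicate 3 had between 9.98% of the group mean, for Krt20, and 77.5%, for Krt8. This library was also the lowest for 55.8% of all genes that were higher in the group, so a low value there is common. Without it, 6 keratin genes were called, as with it.

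**Figure D2:**
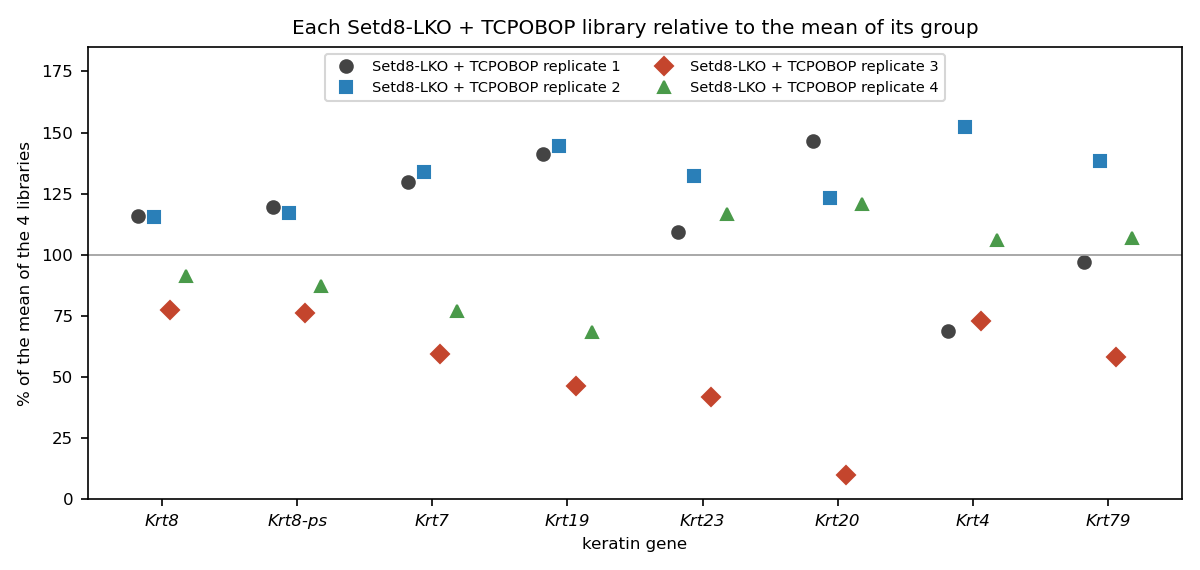
Level of each keratin gene (horizontal axis) in each library labelled Setd8-LKO + TCPOBOP as a percentage of the mean of the 4 libraries (vertical axis, line at 100%). Replicate 3, the red diamonds, is lowest for 7 of 8 genes and drops to 9.98% for Krt20, while for Krt4 replicate 1 is lowest at 68.9%.

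Krt8 and Krt8-ps shared their most similar genes, each other, Cd63 and Nlrp4e, while those named for the other 6 keratins were not shared. Likeness was taken as the Pearson correlation of log2(normalized count + 1) after subtraction of each group's mean, over the 9 libraries of the first table, and is a description of libraries that share depth and run. For Krt20 they were Lif (r = 0.96), a cytokine of the interleukin 6 family that was also at 0 in untreated WT and at a mean of 45.5 normalized counts in the libraries labelled Setd8-LKO, Sult2a2 (r = 0.96) and Ypel4 (r = 0.96). Since Krt20 was at 0 in all 5 untreated libraries, its correlations rest on the 4 libraries labelled Setd8-LKO. Among those, replicate 3 stood far below the rest, at 9.98% of the group mean of Krt20. For Krt4 the most similar genes were Fasn (r = 0.95), Fdft1 (r = 0.94) and Nsdhl (r = 0.94), which encode enzymes of fatty acid and sterol synthesis and whose means fell, to 0.20, 0.38 and 0.44 of the untreated level. For Krt19 they were Thsd4, Plch1 and Sirpa (r = 0.94 to 0.95), for Krt7 Gm14437, Plekhh2 and Zbtb7c (r = 0.93 to 0.95), for Krt23 Maged2 (r = 0.97) and Adgrf1 (r = 0.96) and for Krt79 Gm11967, Gm14232 and D630002J18Rik (r = 0.93 to 0.96). Over the 10 libraries of the second table, Krt4 was most like Zfp687, Pfkfb3 and Gm48342 (r = 0.87 to 0.90), Krt79 most like Atg7, Ephx1 and Tmem53 (r = 0.75 to 0.84), and Krt23 most like Hsd17b6, Gm4956 and Fam13a (r = 0.82 to 0.88). The neighbours Krt4 and Krt79 correlated with each other at 0.54 over the 9 libraries and 0.47 over the 10. In untreated WT, Krt4 was at 0 to 3 normalized counts and Krt79 at 0 to 1. On the log2 scale a difference of 1 read there is large, so every correlation of Krt4 and Krt79 rests in large part on these few reads.

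Genes that anchor keratin filaments at cell junctions were read from a list of 24 desmosome, hemidesmosome and cytolinker genes, of which 8 were in the first table and 0 in the second. Of these 8, 7 were called higher in the Setd8-LKO-labelled libraries and 0 lower, with a median log2 fold change of 1.61 against 1.16 over all genes tested, 50.5% of which were called higher. Under DESeq2 size factors 3 of the 8 were called higher (Evpl, Itgb4 and Pkp1) and 1 lower (Dsg1a), with a median of 0.80 against 0.30 over all genes. Pkp1, the desmosomal plaque protein plakophilin 1, went from 0 to 1.1 normalized counts in the untreated libraries to 88.8 to 222 in those labelled Setd8-LKO. Itgb4, the hemidesmosomal integrin chain that binds the keratin network through plectin, went from 13.2 ± 2.84 (SD, n = 5) to 86.8 ± 39.7 (SD, n = 4), a log2 fold change of 2.70 (adjusted p = 0.00071, edgeR). Dsg1a, a desmosomal cadherin, was the member not called, at 12.5 ± 7.43 (SD, n = 5) and 2.38 ± 0.77 (SD, n = 4) with a log2 fold change of -2.33 (adjusted p = 0.059, edgeR). The called members Evpl and Ppl encode envoplakin and periplakin, which tie keratin to the cell periphery.

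Of 16 other intermediate filament genes, 5 were in the first table and 0 in the second. Prph, Vim, Gfap and Lmna were called higher and Sync was called lower in the libraries labelled Setd8-LKO, with a median log2 fold change of 1.45, where 50.5% of all genes tested were called higher. Under DESeq2 size factors 4 of the 5 were tested, and Prph alone was called higher and Sync lower. Prph, a filament protein of neurons, went from 3.59 ± 2.04 (SD, n = 5) to 41.7 ± 12.8 (SD, n = 4), Vim, the filament protein of mesenchymal cells, from 382 ± 126 to 1229 ± 456, and Sync, a filament partner of muscle, from 55.7 ± 10.5 to 18 ± 3.33. Stellate cell and fibroblast markers moved with Vim: 4 of 6 were listed, all 4 were called higher, beside 50.5% of all genes, with Col1a1 and Col3a1 alone called under DESeq2 size factors, and their sum was 2071 to 3108 normalized counts in untreated WT and 5103 to 11703 in the libraries labelled Setd8-LKO. Their part in the level of Vim was not tested.

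Markers of stratified epithelium, where Krt4 is normally found, were listed in 3 of 8 cases in the first table and in 0 in the second. The second table therefore gives no level of these markers in WT + TCPOBOP, the group with the highest Krt4 level. Their part in the level of Krt4 was not tested. Sprr1a and Sbsn, components of the cornified envelope, were called higher in the Setd8-LKO-labelled libraries and Dsg1a was not called, whereas under DESeq2 size factors Sprr1a was called higher and Dsg1a lower. The sum of the 3 was 11.3 to 26.3 normalized counts in untreated WT and 226 to 1741 in the Setd8-LKO-labelled libraries, and Sprr1a alone made up most of it, with 208 to 1718. Trp63, Lor, Ivl, Sprr1b and Krtdap were not in the table. Mesothelium, which also makes keratins, had 3 of 6 markers in the first table with a sum of 1.3 to 31.8 in untreated WT and 25.6 to 83.8 in the Setd8-LKO-labelled libraries, and its 1 tested marker, Upk1b, was not called (adjusted p = 0.61, edgeR). Among markers in the WT + TCPOBOP table, Lrrn4 of mesothelium and Prom1 of bile duct were listed and not called, and Lrat of stellate cells was called lower. S100a8 was the 1 leukocyte marker of 7 in the first table and was not called, and 0 of 5 endothelium markers were listed.

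The chromatin lists hold 1 set of peaks per condition, so the following is a description without replicates or a test, and it compares Setd8-LKO + TCPOBOP with untreated WT only, so that genotype and drug cannot be told apart. Peaks were counted over a gene or within 1000 bp of an annotated transcript start, and a peak was called shared if it overlapped a peak of the other list by at least 1 base. Over the 8 keratin genes, 9 peaks were in the Setd8-LKO + TCPOBOP list alone, 2 were in the untreated WT list alone and 6 peaks of the Setd8-LKO + TCPOBOP list overlapped one of untreated WT. List sizes matter for this reading: CTCF had 5838 peaks in untreated WT and 20905 in Setd8-LKO + TCPOBOP, Smc3 had 13045 and 21615, H3K27ac had 27983 and 27752, and ATAC-seq had 27307 and 23386.

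**Figure D3:**
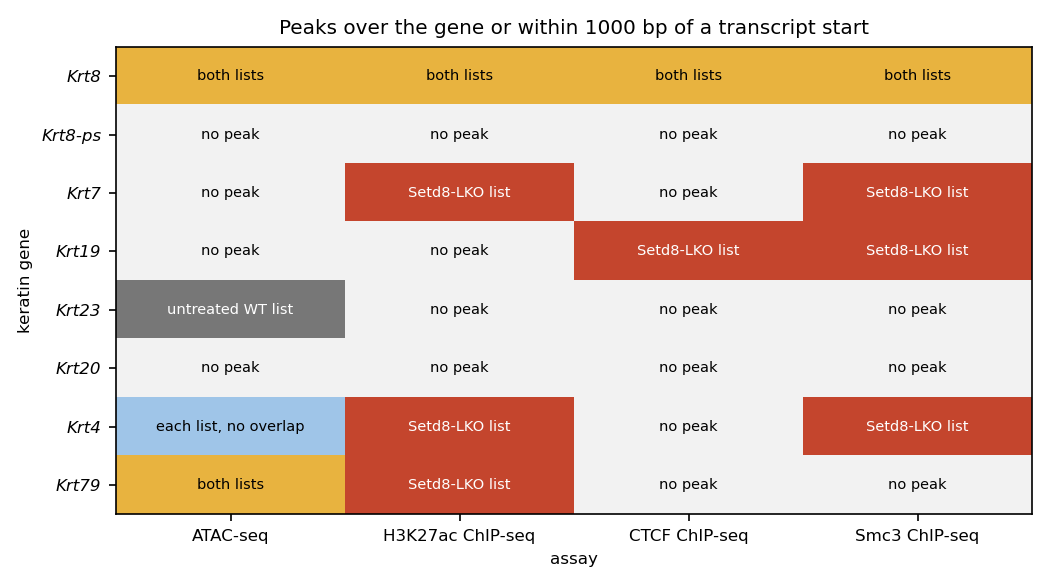
Peaks over each keratin gene or within 1000 bp of a transcript start (rows) in each assay (columns), by the list that holds them. Yellow marks overlapping peaks of both lists, red the Setd8-LKO + TCPOBOP list alone, grey the untreated WT list alone and blue a peak in each list without overlap. Krt8 has overlapping peaks in all 4 assays, and Krt20 and Krt8-ps have none.

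H3K27ac, an acetylation found at active promoters and enhancers, had peaks of the Setd8-LKO + TCPOBOP list alone at Krt7, Krt4 and Krt79. These are 3 of the 7 protein-coding listed keratins (42.9%), beside 15.4% of all 21951 protein-coding genes. Smc3, a subunit of the cohesin ring, had such peaks at Krt7, Krt19 and Krt4, also 42.9% of the 7, beside 51.0% of all protein-coding genes. CTCF, the DNA-binding factor that often stops cohesin, had one at Krt19 (14.3%), beside 45.3%. ATAC-seq, which reads accessible DNA, had peaks of the untreated WT list alone at Krt23 and Krt4 (28.6%), beside 17.9%. The 7 keratins are among genes that the authors selected on the RNA-seq libraries, so all protein-coding genes are not a like background for them. The shares over the other listed genes were not analysed here. Krt4 and Krt79 lie next to each other, so their H3K27ac peaks are not at separate loci. Of the 46 protein-coding keratin genes outside the tables, 3 had an H3K27ac peak in the Setd8-LKO + TCPOBOP list, and for 1 of them that list alone held one, while 13 had a CTCF peak and 8 an Smc3 peak of that list alone.

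At Krt8 the marks were already in place in untreated WT. The H3K27ac peak over the start of the gene spanned chr15:102003030-102004291 with a fold enrichment of 30.2 in untreated WT and chr15:102002976-102004276 with 16.4 in Setd8-LKO + TCPOBOP, while the mRNA mean was higher in the latter. Accessible, CTCF and Smc3 peaks at the start were in both lists, and the Smc3 peak was 339 bp long with an enrichment of 16.0 in untreated WT and 1601 bp long with 29.7 in Setd8-LKO + TCPOBOP. Krt18, the type I partner, lies in the same 50 kb window, and the H3K27ac peak over one of its exons, chr15:102027876-102028902 with 35 in untreated WT, was also in both lists, with 24.0 in Setd8-LKO + TCPOBOP. An Smc3 peak over that exon, chr15:102028030-102028561 with 25.6, was in the Setd8-LKO + TCPOBOP list alone, and an accessible peak over it, chr15:102028062-102028245 with 5.36, was in the untreated WT list alone.

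Within 50 kb of Krt4, 5 H3K27ac peaks were present in the Setd8-LKO + TCPOBOP list and 0 in untreated WT, and all 5 lay over Krt4, over the end of Krt79 or between them. The strongest lay between the genes at chr15:101927948-101928920 with a fold enrichment of 11.5, and another at chr15:101924353-101924660 with 11.2 covered the first part of Krt4, overlapping an Smc3 peak at chr15:101924233-101924646 with 11.2. The median H3K27ac peak of the Setd8-LKO + TCPOBOP list also had 11.5. How many genes have such peaks within 50 kb was not analysed here. An accessible region between the genes was in both lists, at chr15:101927476-101927926 with an enrichment of 5.57 in untreated WT and at chr15:101927471-101927971 with 4.79 in Setd8-LKO + TCPOBOP. An accessible region in an intron near the start of Krt79, at chr15:101938797-101939167 in untreated WT, was likewise in both. The H3K27ac peak that counts for Krt79, chr15:101929271-101930020 with 8.49, lay over an exon at the far end of the gene, beside an internal transcript start. The series holds no chromatin samples of WT + TCPOBOP, the group with the highest Krt4 level.

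**Figure D4:**
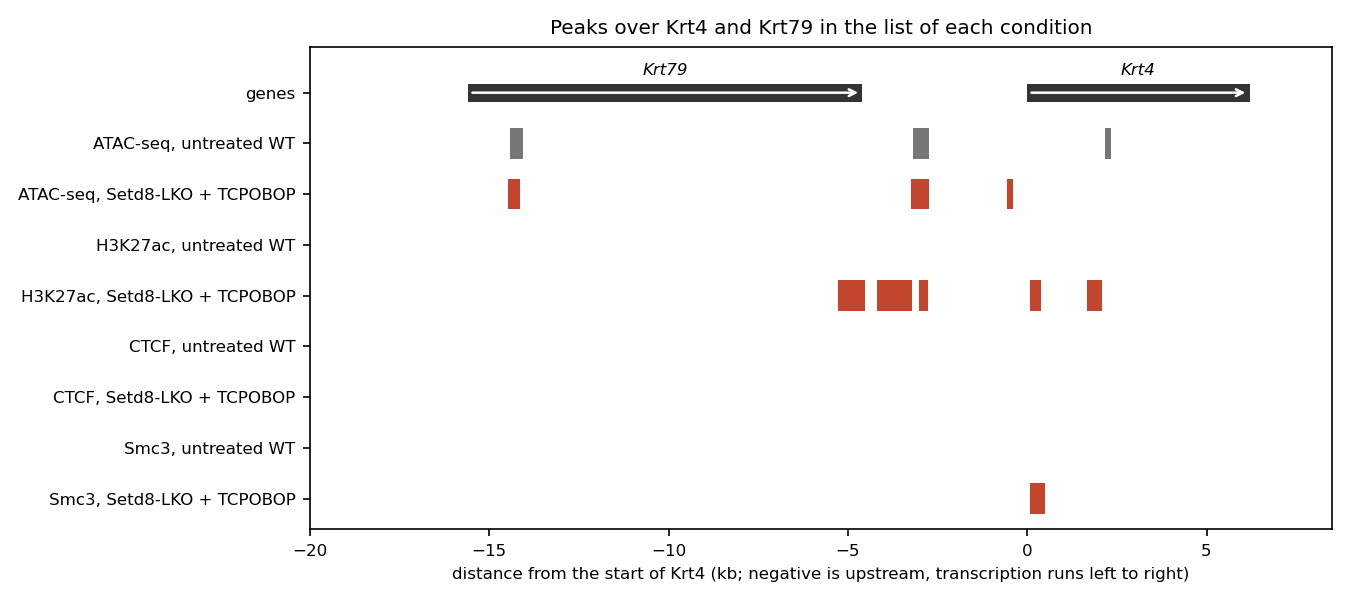
Peaks over Krt79 and Krt4 on mm10 chromosome 15 by distance from the start of Krt4 in kb (horizontal axis), with 1 row per assay and condition and the genes on top. The 5 H3K27ac peaks and the 1 Smc3 peak are in the Setd8-LKO + TCPOBOP list alone, 2 accessible regions upstream of Krt4 are in both lists, and CTCF has no peak in the window shown.

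The accessible regions at Krt4 that differed between the lists are printed because Krt4 is the one keratin with an accessible peak of each list that has no overlap in the other. Both are given from the plus strand of GRCm38.p6, while the gene reads from the minus strand. The first is in the Setd8-LKO + TCPOBOP list alone, at chr15:101925122-101925299, with its centre 476 bp upstream of the Krt4 start and an enrichment of 3.96. The second, in an intron of Krt4 at chr15:101922402-101922560, is in the untreated WT list alone with 6.74. Capitals mark a match to any of 4 motifs searched on both strands, namely TATAAA (the TATA box), TGANTCA (the AP-1 site), AGGTCA (a nuclear receptor half-site, of the kind that CAR binds in pairs) and CAAAGT (part of the HNF4 site).
Krt4 upstream, Setd8-LKO + TCPOBOP list: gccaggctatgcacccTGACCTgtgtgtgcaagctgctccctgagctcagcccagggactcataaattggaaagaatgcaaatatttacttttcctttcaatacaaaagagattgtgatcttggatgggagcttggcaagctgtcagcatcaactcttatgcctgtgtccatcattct
Krt4 intron, untreated WT list: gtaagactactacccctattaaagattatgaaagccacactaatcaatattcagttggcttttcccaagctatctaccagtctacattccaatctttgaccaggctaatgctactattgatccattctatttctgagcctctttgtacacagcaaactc
The only match in the 2 regions was AGGTCA, on the minus strand and so in the direction of the gene, in the region that was accessible in Setd8-LKO + TCPOBOP.

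RefSeq promoters, which run from 250 bases before to 50 bases after a gene start, were matched for 5 of the 8 genes. Those of Krt20, Krt7, Krt23 and Krt79 are printed in the direction of the gene because Krt20 had no reads in untreated WT and no peak, Krt7 had an H3K27ac and an Smc3 peak of the Setd8-LKO + TCPOBOP list alone over it, Krt23 had an accessible peak of the untreated WT list alone over it, and Krt79 was present in both treated groups. On GRCm38.p6 the Krt20 sequence is chr11:99438104-99438403 on the minus strand and the Krt7 sequence is chr15:101412153-101412452 on the plus strand. The Krt23 sequence is chr11:99493071-99493370 and the Krt79 sequence chr15:101940275-101940574, both on the minus strand. The RefSeq start of Krt79 falls on the upper gene boundary given above. Those of Krt7 and Krt23 lie inside the gene as annotated, and that of Krt20 lies just outside it. Promoters of Krt4, Krt19 and Krt8-ps are not shown.
Krt20 promoter: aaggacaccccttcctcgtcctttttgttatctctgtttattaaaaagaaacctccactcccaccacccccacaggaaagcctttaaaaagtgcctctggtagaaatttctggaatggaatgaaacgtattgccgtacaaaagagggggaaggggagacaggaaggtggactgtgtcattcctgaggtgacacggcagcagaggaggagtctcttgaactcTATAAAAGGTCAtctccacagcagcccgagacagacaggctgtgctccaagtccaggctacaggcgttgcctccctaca
Krt7 promoter: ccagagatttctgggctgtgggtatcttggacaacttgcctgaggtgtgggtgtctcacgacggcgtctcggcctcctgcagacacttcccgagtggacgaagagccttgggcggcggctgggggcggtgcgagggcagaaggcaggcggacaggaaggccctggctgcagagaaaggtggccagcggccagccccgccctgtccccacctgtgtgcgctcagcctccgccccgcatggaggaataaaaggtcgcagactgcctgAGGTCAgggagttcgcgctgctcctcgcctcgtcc
Krt23 promoter: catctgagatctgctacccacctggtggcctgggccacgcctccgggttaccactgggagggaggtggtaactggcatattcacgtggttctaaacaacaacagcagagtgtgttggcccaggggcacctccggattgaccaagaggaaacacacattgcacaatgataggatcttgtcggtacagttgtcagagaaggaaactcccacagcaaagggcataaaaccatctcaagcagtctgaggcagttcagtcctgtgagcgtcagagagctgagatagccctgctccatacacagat
Krt79 promoter: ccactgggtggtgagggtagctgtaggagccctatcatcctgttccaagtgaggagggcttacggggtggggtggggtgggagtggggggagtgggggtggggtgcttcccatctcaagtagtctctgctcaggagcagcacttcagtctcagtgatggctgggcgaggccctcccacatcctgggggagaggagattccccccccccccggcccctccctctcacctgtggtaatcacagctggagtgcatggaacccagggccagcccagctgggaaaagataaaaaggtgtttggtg
Counted from the RefSeq start on which each promoter is built, with bases before it negative, Krt20 held a TATAAA match beginning at -29 and an AGGTCA match directly after it at -23. Krt7 held AGGTCA beginning at 15, and Krt8, not printed, held AGGTCA at -225 and TATAAA on both strands around the start. Krt23 and Krt79 held none of the 4 letter strings in this window. Among 32851 promoters of the same length, 13.6% held TATAAA, 7.81% TGANTCA, 16.3% AGGTCA and 14.4% CAAAGT. A match is a description of letters and says nothing of binding.

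At Krt7 the H3K27ac peak chr15:101412323-101412691 with a fold enrichment of 11.5 and the Smc3 peak chr15:101412350-101412737 with 11.9 began inside the printed promoter, and both were in the Setd8-LKO + TCPOBOP list alone. No accessible peak was listed at Krt7 in either condition. At Krt23 the accessible peak of untreated WT, chr11:99493090-99493317 with 8.80, lay over the printed promoter and was absent from the Setd8-LKO + TCPOBOP list. The mean mRNA level of Krt23 in that condition was 2.78 times that of untreated WT. This difference was not called (adjusted p = 0.21, edgeR), and the groups overlapped. Krt20 had no peak over the gene or its promoter in any list, and the nearest H3K27ac peak within 50 kb, at chr11:99385686-99386587 over an exon of Krt10, was in both. Krt19 had a CTCF peak at chr11:100145199-100145756 and an Smc3 peak at chr11:100145217-100145524 in the Setd8-LKO + TCPOBOP list alone, both over an exon inside the gene, and no H3K27ac or accessible peak.

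Lamin A/C marks chromatin at the nuclear lamina and H4K20Me3 is a mark of silent chromatin. The 7 protein-coding listed keratins lay outside every island of both, in both conditions, as did all 46 other protein-coding keratin genes, while 12.9% of all protein-coding genes overlapped a Lamin A/C island in untreated WT and 10.7% in Setd8-LKO + TCPOBOP. The corresponding shares for H4K20Me3 were 11.1% and 11.4%. The nearest island to any of the 7 genes was 1451 kb away. Krt8-ps differed in that it lay inside islands of both kinds and in both conditions. The Lamin A/C island over it was 640 kb long with a score of 475 in untreated WT and 140 kb long with a score of 39.4 in Setd8-LKO + TCPOBOP, and the H4K20Me3 island was 960 kb long with a score of 2183 and 640 kb long with a score of 1658.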

How the data were processed

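Whole liver RNA was sequenced in 5 untreated WT, 5 WT + TCPOBOP and 4 Setd8-LKO + TCPOBOP libraries. The authors aligned reads to mm10 with HISAT2 and deposited, for each comparison, a table of the genes they selected on these libraries, with raw counts per gene and normalized counts rounded to whole numbers, which are a score rather than counts here. Normalized values equalled raw counts times 1 factor per library within 1.70. The tables also hold the authors' fold changes and p-values, and 54 and 60 other columns of per-library values, none of which were used. Peak lists were deposited as fold enrichment (a ratio) and −log10 p from MACS2, and Lamin A/C and H4K20Me3 islands with a SICER score. How the authors pooled replicates into a list is not given in the sources used here.

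Raw counts of all listed genes were fitted with edgeR 4.0.16 in R 4.3.3 (quasi-likelihood test), scaled by the authors' factors, with a minimum count of 10. This filter assumed the average depth per library that the study states. P-values were adjusted by Benjamini-Hochberg over the 55450 annotated genes, since unlisted genes could not be tested. Calls required an adjusted p below 0.05 and a log2 fold change beyond 1 in size. The fit was tested on simulated data. P-values measure the spread between these libraries, which the study calls biological replicates, from mice sampled on a single date. Named genes were all keratins, Kmt5a, the 3 genes most like each keratin among genes with a mean of at least 10 (Pearson correlation, pseudocount 1), and the 3 members of each list with the largest fold change. One gene that this rule names is not reported here. Other genes were named where a count was 5 or fewer or as background, after their values were seen. The members and lists were chosen with earlier results of these data known. Promoters are from RefSeq (GRCm38.p6). Alternatives were other scalings, no filter, DESeq2 1.42.0, adjustment over listed genes, a run term, a replicate block, left-out libraries, and other peak thresholds and overlaps.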

Additional observations from a re-analysis of the deposited data

Results flagged for a closer look

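Krt79 had 1 normalized count in 1 of the 5 untreated WT libraries (replicate 2) and 0 in the other 4, so that the highest library stood apart from the rest of its group by Dixon's criterion. Any group with a single library above 0 meets this criterion whatever its count, so the mark carries no weight here, and the value rests on a single read.

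Krt23 differed between the treated groups, whose mean levels lay on opposite sides of untreated WT. The log2 difference between Setd8-LKO + TCPOBOP and WT + TCPOBOP was 3.47 (SE 0.62, adjusted p = 0.026, edgeR), in a comparison added after the data had been seen. All 4 libraries labelled Setd8-LKO were above all 5 of WT + TCPOBOP, and the share of genes with such a separation was not analysed here. The call was lost on leaving out any 1 of 7 libraries, as given with the result.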

How the results depend on the processing

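The log2 fold changes of the keratins changed direction under no alternative run, but under DESeq2 size factors of the listed genes the balance of calls over all genes turned, from 1881 higher and 1289 lower to 765 and 1463 for Setd8-LKO + TCPOBOP and from 349 and 110 to 67 and 195 with TCPOBOP alone. Of the 6 keratins called in the libraries labelled Setd8-LKO against untreated WT, 3 were called under DESeq2 size factors of the listed genes, with Krt8-ps at a log2 fold change of 0.57 (adjusted p = 0.14, edgeR), 8 with adjustment over the listed genes tested, Krt19 (adjusted p = 0.013) and Krt23 (adjusted p = 0.014) being added (edgeR), and 6 to 7 when 1 library was left out. With WT + TCPOBOP against untreated WT, 2 were called on leaving out each library in turn (2 to 2) and 3 over the listed genes tested, Krt23 being added as lower (adjusted p = 0.0096, edgeR). In the added comparison of the treated groups, where 1 was called, 2 were called with DESeq2's Wald test and 2 with adjustment over the listed genes, the second being Krt4 (adjusted p = 0.0041 with DESeq2), and 0 to 1 on leaving out a library. The peak counts of 9, 2 and 6 ranged over 8 to 11, 2 to 3 and 5 to 7 under other thresholds, promoter widths and overlaps.

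Replicate numbers did not pair the libraries: same-numbered libraries deviated together with correlations of -0.15 to 0.064 in the first table and -0.42 to 0.24 in the second. With a replicate block, 6, 2 and 0 keratins were called in the 3 comparisons, Krt23 being lost in the last (adjusted p = 0.17, edgeR), and over all genes WT + TCPOBOP gave 159 calls in place of 459. That table gave 262 calls under DESeq2 size factors and 259 under TMM, and the added comparison gave 227 in place of 126 with adjustment over listed genes. Total depth was not analysed here, a few untreated reads set the size of the folds of Krt79 and Krt4, and the floor of 3 counts sets that of Krt20.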
